A study of Mus musculus with 21 samples.

Results

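Retnla, Arg1, Mrc1, Cd163, Lyve1, Folr2 and Timd4 are genes used to mark alternatively activated and tissue-resident macrophages, and their levels were described in whole mouse colon by RNA sequencing. The 7 genes were listed by name, and the list was chosen by measured values: in normal colon of knock-in mice, Retnla was higher in females than in males. All 7 were found among the 24062 genes of the deposited count table. Of these, 6 passed the filter on low counts and were tested among 15936 genes, while Timd4, at 0 to 20 counts per library, was not. Values from the comparison of knock-in females with knock-in males are therefore given as a description with no test, and so are the values of Retnla in every comparison that uses a knock-in normal group.

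All mice were of strain C57BL/6, with either the wild-type App gene or App NL-G-F, a knock-in that puts mutations of familial Alzheimer's disease into the mouse gene for the amyloid precursor protein. Tumour samples came from colon after AOM/DSS, a carcinogen given with an agent that injures the colon lining. Normal samples are labelled as not treated, although the series' design text also speaks of normal tissue beside tumours, so the treatment history of the normal samples is not certain. There were 7 groups of 3 libraries: wild-type male normal, wild-type male tumour, wild-type female normal, wild-type female tumour, knock-in male normal, knock-in male tumour and knock-in female normal. No knock-in female tumours were analysed here, and the labels give no ages. The labels do not say whether libraries of a group came from separate animals, so p-values measure the spread between these libraries, which may be technical. Of the knock-in female normal libraries, 2 share a column header and are called a and b.

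Library totals ran from 3414123 counts in wild-type male tumour 2 to 26174008 counts, and 3 counts, taken as the floor, correspond to 0.873 CPM (counts scaled to library size by TMM) and 0.127 CPM in those libraries. Summed over 9 colon epithelium genes, libraries held 5885 to 26700 CPM, and over 11 general macrophage genes 162 to 392 CPM. Summed over 6 smooth muscle genes, the values were 162 to 694 CPM in wild-type tumours, 803 to 935 CPM in knock-in tumours and 1852 to 9004 CPM in normal colon. By genes of squamous epithelium, which lines the anal canal and not the colon, 4 libraries were set apart. The genes (Krt5, Krt13, Krt14, Krt6a, Trp63 and Dsg3) and the limit of 500 CPM were chosen after the data were seen. Wild-type male normal 1, knock-in male normal 1, knock-in male tumour 2 and knock-in female normal 1 held 605 to 3307 CPM of these genes. The others held at most 487 CPM, with 456 CPM in wild-type male tumour 1 and 381 CPM in knock-in male tumour 3. The limit thus fell between values close to each other. Counts of genes called are also given without these 4 libraries where that changes them. In whole tissue, fewer cells of a type and less RNA per cell cannot be told apart.

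Macrophages of the gut wall include cells that are replenished from blood monocytes and long-lived resident cells, which lie around vessels, nerves and muscle deeper in the wall. Interleukin 4 and interleukin 13 signal through their shared receptor and STAT6 to a programme called alternative activation, of which Retnla, Arg1 and Mrc1 are standard markers in mice. Cd163, Lyve1, Folr2 and Timd4 are surface receptors used to recognise resident macrophages in many tissues, and Lyve1 is also a receptor of lymphatic endothelium.

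Positions on GRCm38 (GENCODE), with Lyve1 and Folr2 on the same chromosome, are as follows: Retnla at chr16:48842551-48844461, Arg1 at chr10:24915221-24927484, Mrc1 at chr2:14229392-14332057, Cd163 at chr6:124304656-124330527, Lyve1 at chr7:110850607-110863239, Folr2 at chr7:101839988-101857194 and Timd4 at chr11:46810800-46844332. The RefSeq promoter table (GRCm38.p6, 250 bases before to 50 bases after a start site) holds entries for 5 of the 7 genes. It holds none for Arg1 and Lyve1, whose promoters were not searched. Those of Retnla, Mrc1 and Cd163 are shown because these genes were lower in wild-type tumours of both sexes. Each is on the plus strand, at chr16:48842359-48842658, chr2:14229164-14229463 and chr6:124304401-124304700. Capitals mark matches, on either strand, to TTC and GAA with 4 bases of any kind between them (the spacing bound by STAT6), to GAGGAA (PU.1, the lineage factor of macrophages) or to TGCTGA (the core of the site of Maf factors).
Retnla: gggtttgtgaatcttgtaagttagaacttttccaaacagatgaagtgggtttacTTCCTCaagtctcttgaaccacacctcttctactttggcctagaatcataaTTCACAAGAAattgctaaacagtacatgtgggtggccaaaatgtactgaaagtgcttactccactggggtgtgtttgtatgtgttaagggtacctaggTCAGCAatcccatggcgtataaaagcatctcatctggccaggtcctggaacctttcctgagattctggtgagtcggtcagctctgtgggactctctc
Mrc1: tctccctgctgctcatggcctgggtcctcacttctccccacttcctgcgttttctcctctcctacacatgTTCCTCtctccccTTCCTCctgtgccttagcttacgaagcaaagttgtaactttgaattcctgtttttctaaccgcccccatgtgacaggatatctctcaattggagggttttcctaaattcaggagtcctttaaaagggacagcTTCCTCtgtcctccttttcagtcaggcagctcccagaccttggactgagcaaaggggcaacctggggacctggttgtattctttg
Cd163: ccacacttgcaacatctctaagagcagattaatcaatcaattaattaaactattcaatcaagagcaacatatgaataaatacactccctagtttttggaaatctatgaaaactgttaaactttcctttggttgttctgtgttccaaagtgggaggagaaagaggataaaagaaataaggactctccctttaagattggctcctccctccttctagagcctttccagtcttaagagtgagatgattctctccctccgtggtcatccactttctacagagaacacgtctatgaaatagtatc
Of the 5 members with an entry, Retnla was the one with a match to the STAT6 letters, with its first base 145 bases before the start site. Retnla also held GAGGAA 196 bases and TGCTGA 47 bases before the start. Mrc1 held GAGGAA 180, 167 and 35 bases before its start, and the Cd163 window held none of the 3 motifs. Among 32851 promoters of this length, 6.95% held the STAT6 letters, 28.28% held GAGGAA and 19.48% held TGCTGA, so each match is common and is a description of letters, not of binding.

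Cd163, Retnla and Mrc1 fell in wild-type tumours of both sexes, Lyve1 was called in neither sex, and Arg1 rose in females. In wild-type males, 3 of 6 tested members were lower in tumours than in normal colon (Cd163, Retnla and Mrc1) where 19.3% of all tested genes were lower and 16.5% higher. In wild-type females, 4 of 6 were lower (the same 3 and Folr2), where 24.0% of all tested genes were lower, and Arg1 was higher, where 25.0% were higher. In knock-in males none of 5 tested members passed edgeR's threshold of 0.05 between tumours and normal colon, where 9.97% of all tested genes were lower and 10.4% higher. There, 1 member (Cd163) had an unadjusted p under 0.05, and neither DESeq2 nor limma voom called a member.

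**Figure D1:**
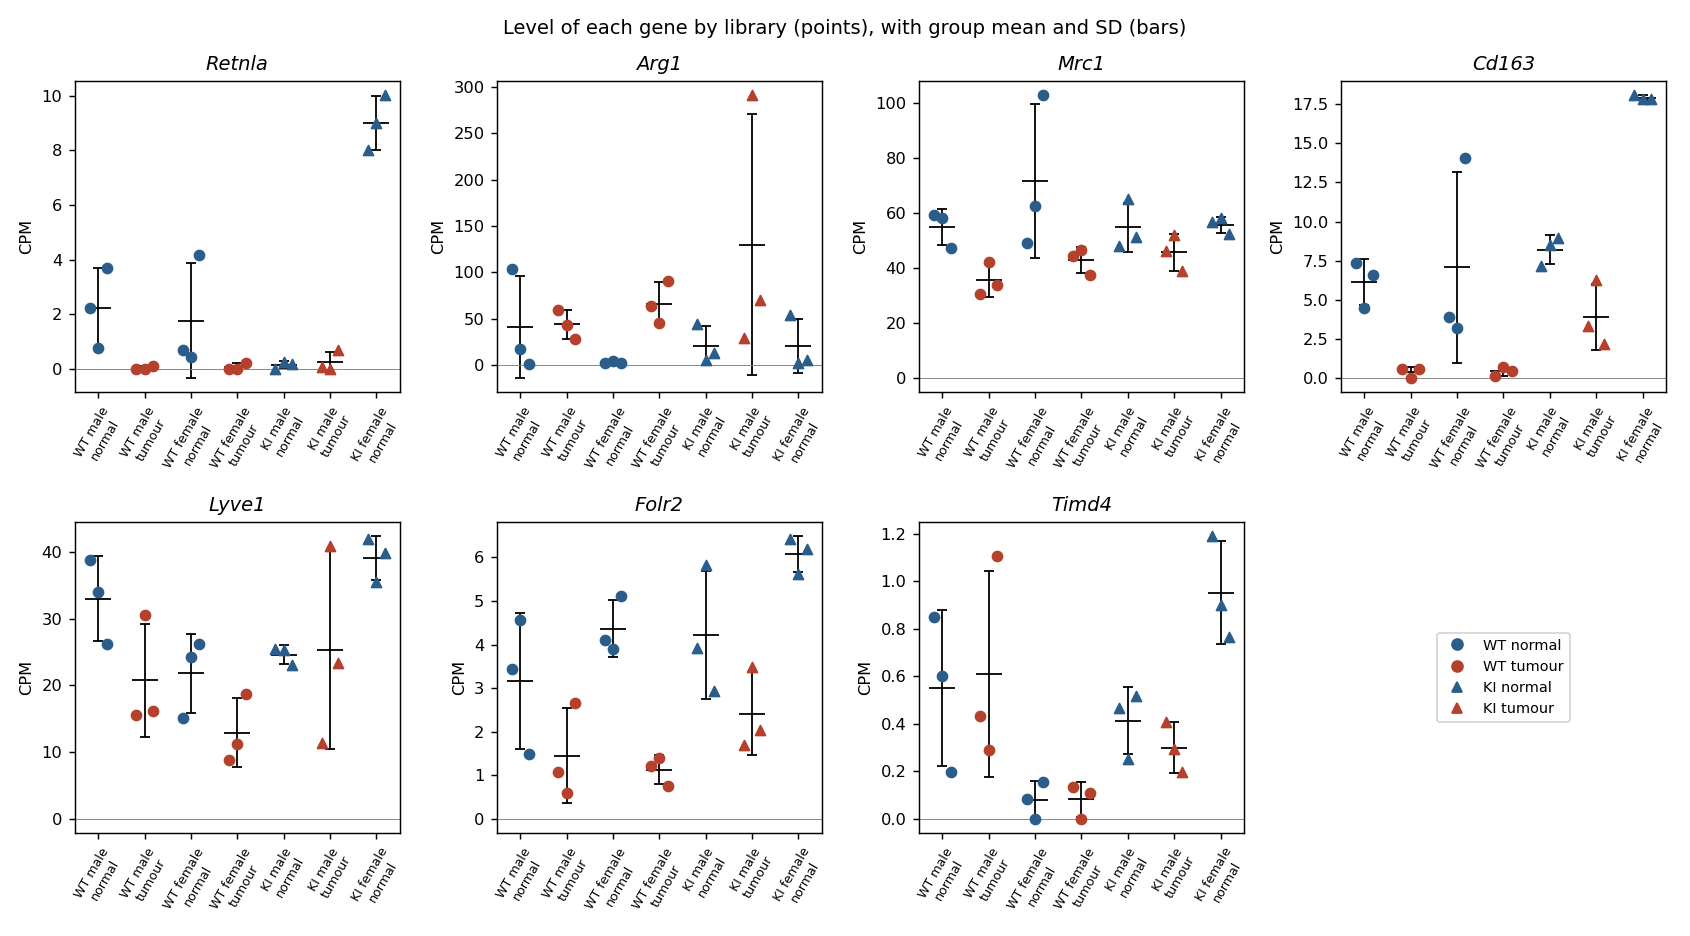
Level of each of the 7 genes in CPM (linear axis, 1 panel per gene) in the 3 libraries of each group, with the group mean and SD as bars; circles are wild-type, triangles knock-in, blue normal colon and red tumours. Cd163 lies between 0 and 0.701 CPM in the 6 wild-type tumours, and Retnla between 8.03 and 10.02 CPM in the 3 knock-in female normal libraries.

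Cd163 encodes the receptor that clears haemoglobin bound to haptoglobin. Its level in wild-type male normal colon was 7.36, 4.49 and 6.56 CPM (6.14 ± 1.48, SD, n = 3), and in wild-type male tumours 0.576, 0 and 0.552 CPM (0.376 ± 0.326, n = 3). In wild-type females it was 3.93, 3.20 and 14.08 CPM in normal colon and 0.136, 0.701 and 0.435 CPM in tumours. Every wild-type tumour lay below every normal library of any group. On the log2 scale the fitted fold change was -3.67 in males (SE 0.62, edgeR adjusted p 0.0002611) and -3.96 in females (SE 0.64, edgeR adjusted p 6.201e-05).

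Tumours of knock-in males held more Cd163 than wild-type tumours, and less than normal colon of knock-in males. Cd163 was at 7.19, 8.48 and 8.98 CPM in their normal colon and at 3.33, 6.27 and 2.15 CPM in their tumours, without overlap between those groups, and the log2 change of -1.05 (SE 0.47) did not pass the test (edgeR adjusted p 0.1194). Between the tumours of males, Cd163 was higher with the knock-in, by 3.04 (SE 0.63) on the log2 scale (edgeR adjusted p 0.008646), with all 3 knock-in tumours above all 3 wild-type tumours. It was the member called of 6 in that comparison, where 9.30% of all tested genes were higher and 5.23% lower. The test of the difference between the tumour changes of the genotypes gave 2.62 (SE 0.79) on the log2 scale and did not pass (edgeR adjusted p 0.07187). In that interaction none of 5 tested members was called by edgeR, where 1.14% of all tested genes were higher and 0.370% lower; 1 had an unadjusted p under 0.05, DESeq2 called 1 and limma voom called 0. These comparisons share the wild-type male tumours.

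Several limits apply to the Cd163 difference between male tumours. Without the 4 libraries high in squamous genes, of which knock-in male tumour 2 holds the highest Cd163 level of the 3 knock-in tumours, the difference was 2.49 and was no longer called (edgeR adjusted p 0.08396). Smooth muscle genes moved in the same sense: their sum was 174, 238 and 694 CPM in wild-type male tumours and 935, 924 and 803 CPM in knock-in male tumours. By edgeR 0 of the 6 were called between these groups, with 6 at an unadjusted p under 0.05, and DESeq2 called 3, limma voom 1, and edgeR 5 without wild-type male tumour 3. Their part in the result was not tested.

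**Figure D2:**
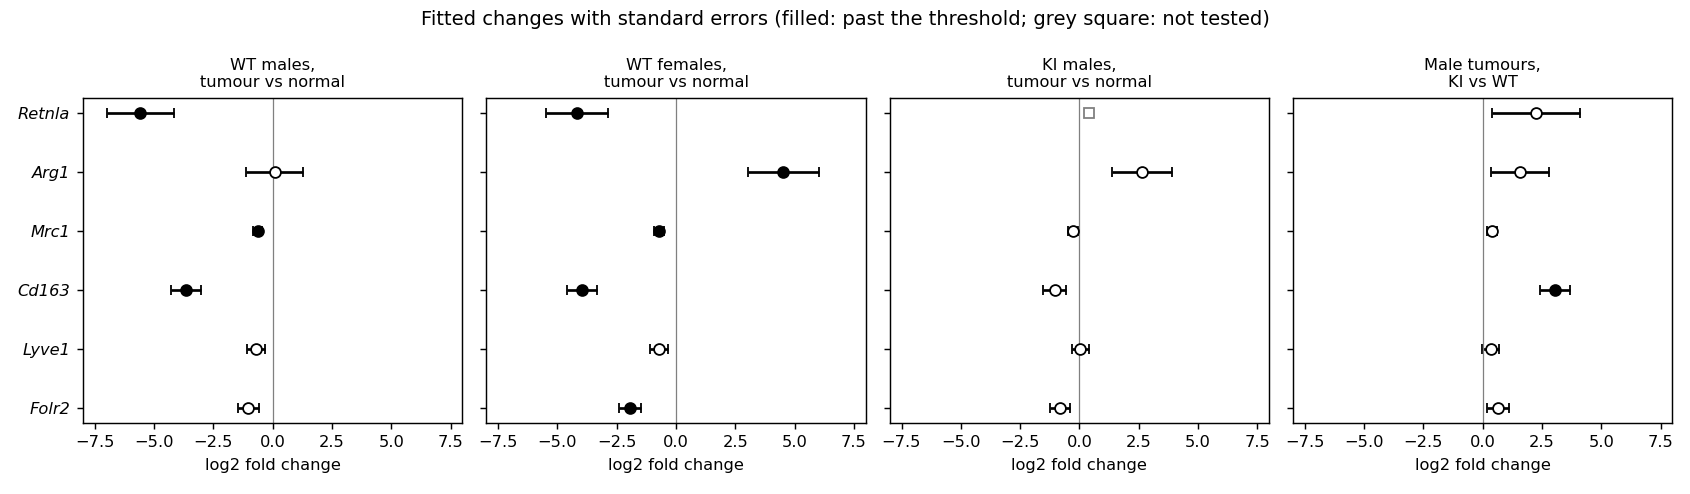
Fitted log2 fold change (horizontal axis) of the 6 tested members with its standard error in 4 comparisons; filled points passed the edgeR threshold, open points did not, and the grey square was not tested. Cd163 lies at -3.67, -3.96 and -1.05 in the 3 tumour comparisons and at 3.04 between knock-in and wild-type male tumours.

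In normal colon, Cd163 was highest in knock-in females, at 18.08 CPM in replicate 1, 17.86 CPM in a and 17.83 CPM in b, above every other library of the series. Against wild-type females the log2 difference was 1.38 (SE 0.47) and missed the threshold (edgeR adjusted p 0.05392). None of 5 tested members was called by edgeR in that comparison, where 8.97% of all tested genes were higher and 1116 of 15936 lower; 2 members (Cd163 and Lyve1) had an unadjusted p under 0.05, DESeq2 called 1 and limma voom called 2. Wild-type female normal 3, at 14.08 CPM, bears on this result: without it the difference was 2.31 and passed (edgeR adjusted p 0.002235). Smooth muscle genes were also higher in knock-in females, with sums of 6389, 9004 and 6787 CPM against 2677, 1852 and 4297 CPM in wild-type females. Retnla, Lyve1 and Folr2 were compared in these same libraries. The part of muscle in the differences of these members and of Cd163 was not tested. Against knock-in males, the comparison that led to the list, the log2 difference of Cd163 was 1.12. In order of mean level, knock-in female normal colon was followed by knock-in male, wild-type female and wild-type male normal colon, which overlapped one another, then by knock-in male tumours and, below them without overlap, by the wild-type tumours of both sexes.

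Mrc1 encodes the macrophage mannose receptor, CD206, and its level varied little between the groups of normal colon. Group means in normal colon were 54.9 ± 6.55 CPM in wild-type males, 71.5 ± 28.0 CPM in wild-type females, 54.9 ± 8.99 CPM in knock-in males and 55.7 ± 3.05 CPM in knock-in females (SD, n = 3 each). Wild-type male tumours were at 30.7, 42.2 and 33.9 CPM, below the 59.2, 58.2 and 47.3 CPM of wild-type male normal colon, and wild-type female tumours were at 44.3, 46.8 and 37.6 CPM, below the 49.1, 62.7 and 102.9 CPM of wild-type female normal colon. Neither pair of groups overlapped. The log2 change was -0.64 in males (SE 0.21, edgeR adjusted p 0.02319) and -0.73 in females (SE 0.21, edgeR adjusted p 0.00691), and in knock-in males it was -0.26 and not past the threshold (edgeR adjusted p 0.3788).

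Both Mrc1 calls depended on the libraries included. In males the call was lost without wild-type male normal 1 (edgeR adjusted p 0.06022), normal 2 (0.05432), tumour 1 (0.09306) or tumour 3 (0.07066), and also without the 4 libraries high in squamous genes (0.0794), with log2 changes between -0.56 and -0.61. In females it was lost without wild-type female normal 3, where the change was -0.38 (edgeR adjusted p 0.08223). Without that library, 2 of the 6 members were called in wild-type females in place of 5.

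Folr2 encodes folate receptor beta, which is found on resident macrophages. It was at 4.10, 3.90 and 5.11 CPM in wild-type female normal colon and at 1.22, 1.40 and 0.761 CPM in wild-type female tumours, without overlap. The log2 change was -1.94 (SE 0.47, edgeR adjusted p 0.002264) and it was called under every alternative in which it was tested. In wild-type males, normal colon was at 3.45, 4.57 and 1.49 CPM and tumours at 1.08, 0.582 and 2.67 CPM; these overlapped, and the log2 change of -1.03 missed the threshold (edgeR adjusted p 0.08435). That call depended on single libraries, since the change was -1.34 without wild-type male normal 3 (edgeR adjusted p 0.03516) and -1.79 without wild-type male tumour 3 (edgeR adjusted p 0.01458). In knock-in males the means were 4.23 ± 1.46 CPM in normal colon and 2.41 ± 0.947 CPM in tumours (SD, n = 3 each), a log2 change of -0.80 that did not pass (edgeR adjusted p 0.1778). Knock-in female normal colon held the highest levels, 6.42, 5.62 and 6.20 CPM, above all 3 wild-type female normal libraries, with a log2 difference of 0.48 that did not pass (edgeR adjusted p 0.4519).

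Lyve1 encodes a hyaluronan receptor. Its mean was 33.0 ± 6.39 CPM in normal colon of wild-type males and 20.8 ± 8.48 CPM in their tumours, and 21.8 ± 5.92 CPM and 12.9 ± 5.15 CPM in wild-type females (SD, n = 3 each). The log2 changes of -0.72 in males (SE 0.37, edgeR adjusted p 0.1444) and -0.73 in females (SE 0.38, edgeR adjusted p 0.1218) did not pass, and the groups overlapped in both sexes. The female change passed without wild-type female tumour 3, at -1.10 (edgeR adjusted p 0.04448). In knock-in males, tumours spread from 11.4 to 40.9 CPM around normal libraries of 23.0 to 25.5 CPM, and the sign of the fitted change of 0.04 differed between settings. In normal colon of knock-in mice, females were at 42.0, 35.5 and 39.8 CPM and males at 25.5, 25.4 and 23.0 CPM.

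Lyve1 is also expressed by lymphatic vessels, so it was set beside lymphatic genes, and these did not behave alike. Against the summed CPM of the 6 listed lymphatic genes, Pearson's r of Lyve1 was -0.37 over the 21 libraries and 0.25 for deviations from the group means. In wild-type tumours that sum was mostly 1 gene, Prox1. Its mean was 535.1 CPM of a mean sum of 618.0 CPM in males, and 476.0 of 532.5 CPM in females. The r with the sum therefore says little about the other listed genes. The 5 single genes most like it in log2 CPM over the 21 libraries, among 13367 genes compared, were Reln (Pearson r 0.89), Mmrn1 (0.86), Sema3d (0.86), Ldb2 (0.83) and Rerg (0.82), of which Reln and Mmrn1 had been listed as genes of lymphatic endothelium. After removal of the group means, r was still 0.85 with Reln and 0.83 with Mmrn1. Both fell in wild-type female tumours, Mmrn1 by 1.88 (edgeR adjusted p 0.001963) and Reln by 1.49 (edgeR adjusted p 0.003488) on the log2 scale, and Reln fell by 1.04 in wild-type male tumours (edgeR adjusted p 0.03423). Ccl21a, another lymphatic gene, was at 0 in all 21 libraries, whereas Prox1, a transcription factor listed as a lymphatic gene, rose by 5.75 in wild-type female tumours (edgeR adjusted p 3.691e-05). Its mean of 476.0 CPM there stood beside 10.21 CPM for Flt4, 10.79 CPM for Mmrn1, 11.31 CPM for Reln and 24.24 CPM for Pdpn. Which cells gave the Prox1 counts was not tested, so its rise is not a measure of lymphatic vessels. The part of lymphatic vessels in the Lyve1 values was not tested.

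Timd4 encodes a receptor for phosphatidylserine on dying cells. It was at 0 to 20 counts per library, near or below the floor in many, and its values are given as counts. Wild-type female normal colon gave 2, 0 and 1 counts and wild-type female tumours 1, 0 and 1, against 18, 8 and 2 counts in wild-type male normal colon and 6, 1 and 12 in wild-type male tumours. Knock-in male normal colon gave 5, 4 and 6 counts, knock-in male tumours 6, 5 and 2, and knock-in female normal colon 20, 8 and 10. Pooled over the group, knock-in female normal colon held 0.980 CPM (exact Poisson 95% interval 0.693 to 1.35) and wild-type female normal colon 0.0804 CPM (0.0166 to 0.235), where the interval covers counting error only. With no filter on low counts, the difference between these groups was 3.44 on the log2 scale (SE 0.79, edgeR adjusted p 0.007948), and wild-type females were below wild-type males in normal colon by a log2 difference of -2.72 (SE 0.80, edgeR adjusted p 0.0335). Both rest on the 3 counts of the wild-type female normal group.

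Retnla encodes resistin-like molecule alpha, a secreted protein also known as FIZZ1. Normal colon of wild-type males gave 47, 10 and 37 counts (2.22, 0.748 and 3.68 CPM) and their tumours 0, 0 and 1. In wild-type females normal colon gave 16, 3 and 27 counts (0.676, 0.418 and 4.18 CPM) and tumours 0, 0 and 2. No wild-type tumour library reached the level of a wild-type normal library of the same sex. On pooled counts scaled to depth, normal colon exceeded tumours 59.4 times in males (exact 95% interval 10.4 to 2372) and 15.5 times in females (4.05 to 131.7), intervals for counting error only. Both differences passed (log2 change -5.58, SE 1.41, edgeR adjusted p 0.005466 in males; -4.19, SE 1.32, edgeR adjusted p 0.01346 in females), and fitted changes of a gene this low depend on the prior count.

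The female Retnla result leaned on single libraries. Without wild-type female normal 3, the log2 change was -2.74 and was not called (edgeR adjusted p 0.09487). It was also lost without wild-type female tumour 2 (edgeR adjusted p 0.05087), and it was -7.32 without tumour 3, which holds both of the counts.

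In knock-in mice Retnla differed by sex, which is the pattern that chose it, and the values are a description. Knock-in female normal colon gave 135, 80 and 131 counts (8.03, 8.99 and 10.02 CPM, 9.01 ± 0.997, SD, n = 3), above every other library of the series. Knock-in male normal colon gave 0, 4 and 2 counts and knock-in male tumours 1, 0 and 7. The pooled level was 56.6 times higher in knock-in female than in knock-in male normal colon (exact 95% interval 25.8 to 155.4), and 7.24 times higher than in wild-type female normal colon (5.31 to 10.07). Among males the order was the other way round, with wild-type normal colon 13.4 times above knock-in normal colon (5.92 to 37.4). Neither genotype comparison had overlapping libraries. In knock-in males the fitted change between tumours and normal colon was 0.41 on the log2 scale, and -1.96 without knock-in male tumour 3, which holds 7 of the 8 counts. In wild-type female normal colon replicate 3 held most of the counts, and the log2 difference between knock-in and wild-type females was 2.47 with it and 3.93 without it. The sum of smooth muscle genes was also higher in these knock-in females, as given with Cd163, and its part was not tested.

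Arg1 encodes arginase 1, which splits arginine into ornithine and urea. Its level ranged widely within several groups. Wild-type female normal colon was at 2.62, 4.32 and 1.86 CPM and wild-type female tumours at 63.4, 45.2 and 90.4 CPM, without overlap, and the log2 change was 4.52 (SE 1.49, edgeR adjusted p 0.02067). In wild-type males, normal colon ranged from 1.59 to 103.7 CPM around a median of 17.4 CPM and tumours from 28.5 to 59.7 CPM. The male log2 change of 0.08 (SE 1.19, edgeR adjusted p 0.9698) did not pass. Knock-in male tumours were at 28.9, 291 and 69.9 CPM and knock-in male normal colon at 44.4, 5.57 and 12.96 CPM, with a log2 change of 2.65 (SE 1.26, edgeR adjusted p 0.1445). Knock-in female normal colon was at 53.8, 2.47 and 5.59 CPM.

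The female Arg1 call was lost without wild-type female normal 1 (edgeR adjusted p 0.07529) or normal 3 (edgeR adjusted p 0.06434), with log2 changes of 4.40 and 4.34. High Arg1 values went with squamous epithelium genes. In all 7 groups the library highest in squamous genes was also the highest in Arg1. Wild-type male normal 1, knock-in male normal 1, knock-in male tumour 2 and knock-in female normal 1 held 103.7, 44.4, 291 and 53.8 CPM of Arg1 beside 1595, 876, 3307 and 605 CPM of the 6 squamous genes, whereas knock-in female normal b held 5.59 CPM of Arg1 beside 487 CPM. Over the 21 libraries Pearson's r of log2 values was 0.87, and it was 0.88 for deviations from the group means, as a description of libraries that share their depth and normalisation. In wild-type females the squamous genes summed to 2.79 to 5.43 CPM in normal colon and 70.6 to 196 CPM in tumours, without overlap. The 5 genes most like Arg1 were Wdr72 (r 0.95), Tgm1 (0.94), Il1f9 (0.93), Trim29 (0.93) and Wnt7b (0.93), of which Tgm1 encodes the transglutaminase of keratinising epithelium. Alternatives with squamous genes as a covariate, or with their 4 libraries left out, were fitted. Their Arg1 values in wild-type females are not given here. Beyond these fits, the part of squamous epithelium in the Arg1 difference was not tested.

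**Figure D3:**
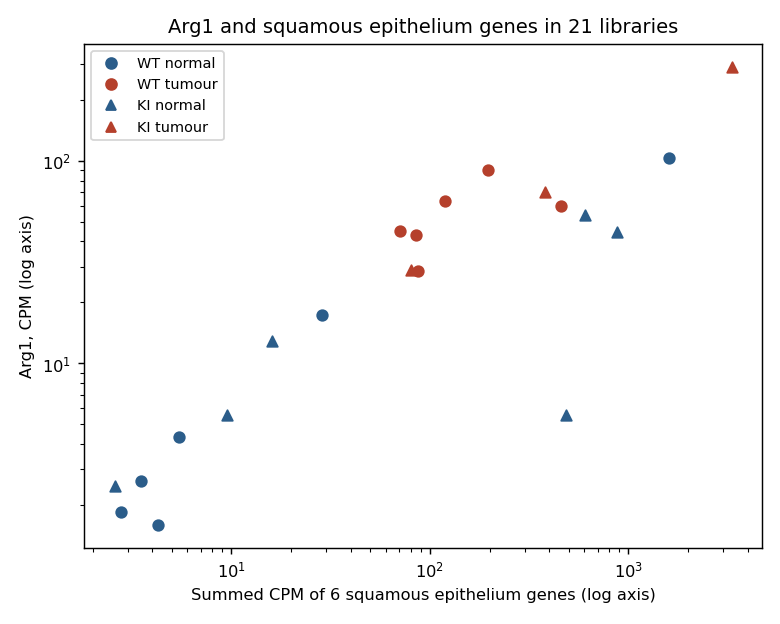
Arg1 in CPM (vertical, log axis) against the summed CPM of 6 squamous epithelium genes (horizontal, log axis) in 21 libraries; circles are wild-type, triangles knock-in, blue normal colon and red tumours. The library highest in both is knock-in male tumour 2, at 291 CPM of Arg1 and 3307 CPM of squamous genes, and Arg1 is under 6 CPM in the wild-type female normal libraries, which hold at most 5.43 CPM of squamous genes.

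Levels were also set against general macrophage genes, as log2 CPM of a member minus the mean log2 CPM of the 11 macrophage genes in the same library. On this scale Cd163 was at -1.40 ± 0.60 in wild-type male normal colon and -5.64 ± 1.40 in wild-type male tumours, and at -1.01 ± 0.91 and -4.82 ± 0.75 in wild-type females (SD, n = 3 each). In knock-in males it was at -1.29 ± 0.11 in normal colon and -2.02 ± 1.09 in tumours. Relative Mrc1 was 1.74 ± 0.17 and 0.68 ± 0.15 in wild-type male normal colon and tumours, 2.54 ± 0.27 and 1.49 ± 0.23 in wild-type females, and 1.42 ± 0.23 and 1.59 ± 0.57 in knock-in males. For Folr2 the wild-type values were -2.42 ± 0.45 and -4.00 ± 1.00 in males and -1.38 ± 0.16 and -3.59 ± 0.46 in females. These 3 members thus stood lower in wild-type tumours against the general macrophage genes as well, by differences given without a test.

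**Figure D4:**
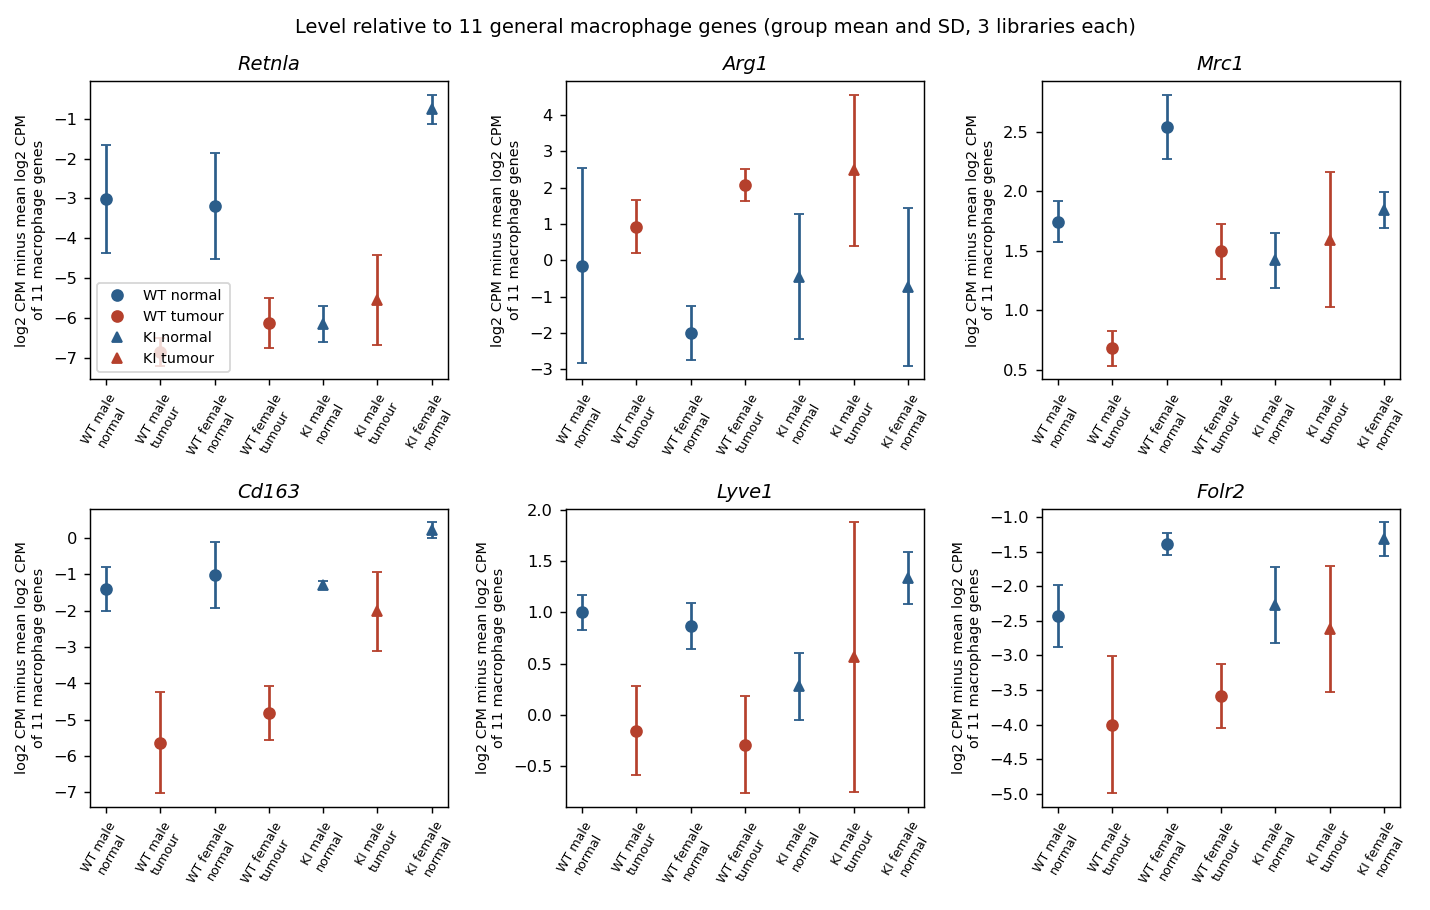
Group mean and SD over 3 libraries of each member's log2 CPM minus the mean log2 CPM of 11 general macrophage genes in the same library; circles are wild-type, triangles knock-in, blue normal colon and red tumours. Cd163 lies at -5.64 and -4.82 in male and female wild-type tumours and at -2.02 in knock-in male tumours.

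The general macrophage genes themselves were called in both directions. Of 11 tested, 3 were higher in wild-type male tumours (Aif1, Fcgr1 and Cd68) and 1 lower, and 2 were higher in wild-type female tumours (Cx3cr1 and Cd68) and 1 lower, with medians of 0.60 and 0.55 on the log2 scale beside 0.01 for all tested genes in each. The lower gene was Mertk, a receptor for uptake of dying cells, at -1.60 in males (edgeR adjusted p 0.0005807) and -2.02 in females (edgeR adjusted p 3.265e-05). Of all tested genes, 16.5% were higher and 19.3% lower in males, and 25.0% higher and 24.0% lower in females. Between male tumours, 3 of the 11 (C1qa, C1qc and Cd68) were lower in knock-in mice, with C1qa at -1.41 (edgeR adjusted p 0.03024), while Cd163 was higher there. In that comparison 5.23% of all tested genes were lower.

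Other resident macrophage genes moved in both directions. Of 12 tested, 4 were lower in wild-type male tumours: Fcna (-2.04, edgeR adjusted p 0.0008702), F13a1 (-1.88, edgeR adjusted p 0.006476), the iron exporter Slc40a1 (-1.65, edgeR adjusted p 1.246e-05) and Gas6 (-0.70, edgeR adjusted p 0.0191). In wild-type female tumours 4 were lower and 3 higher, among them Slc40a1 at -2.60 (edgeR adjusted p 8.304e-08) and the growth factor Igf1 at 1.79 (edgeR adjusted p 0.0004781). In knock-in male tumours 2 were lower and 1 higher, Igf1 again, at 1.29 (edgeR adjusted p 0.01651). Of all tested genes, the shares lower in wild-type male, wild-type female and knock-in male tumours were 19.3%, 24.0% and 9.97%. The shares higher were 16.5%, 25.0% and 10.4%. F13a1 (1.90, edgeR adjusted p 0.0201) and Slc40a1 (0.88, edgeR adjusted p 0.01041) were the 2 of 12 that were higher with the knock-in between male tumours, as Cd163 was. There, 9.30% of all tested genes were higher. For Slc40a1 the difference of the tumour change between the genotypes passed as well, at 1.26 on the log2 scale (edgeR adjusted p 0.04113). In knock-in against wild-type female normal colon 3 of 12 were higher, namely Fcna, Maf and Stab1, where 8.97% of all tested genes were higher.

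Among 15 other genes of alternative activation, wild-type female tumours had 7 higher and 4 lower, and wild-type male tumours 1 higher and 3 lower. Of all tested genes, 25.0% were higher and 24.0% lower in females, and 16.5% higher and 19.3% lower in males. Alox15, a lipoxygenase induced by interleukin 4, was higher in both, by 6.24 in females (edgeR adjusted p 2.062e-06) and 1.47 in males (edgeR adjusted p 0.02698), and Chil3 (Ym1) was higher by 3.25 in females (edgeR adjusted p 0.008913). The transcription factors Irf4 and Pparg were lower in both sexes, Irf4 at -1.81 in males (edgeR adjusted p 0.007456) and -2.09 in females (edgeR adjusted p 0.001444). Both were measured in whole colon, and which cells gave their counts was not tested. The difference of the Alox15 change between the sexes passed, at 4.77 (edgeR adjusted p 0.01313). Retnla and Chil3, both known as targets of STAT6, were called in opposite directions in wild-type female tumours.

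Upstream signals were measured unevenly. Il13 was at 0 in 16 of 21 libraries and Il4 in 8, so changes in them were not detectable at this depth. Il1rl1, the receptor of interleukin 33, was higher in wild-type male (2.52, edgeR adjusted p 0.04714), wild-type female (5.47, edgeR adjusted p 0.000865) and knock-in male tumours (3.84, edgeR adjusted p 0.01753), and Il33 was higher in all 3 as well. Il4ra was higher in wild-type male tumours (0.84, edgeR adjusted p 0.01011) and wild-type female tumours (1.51, edgeR adjusted p 5.313e-05), and Il13ra1 was lower in both. Of the 15 tested genes of this list, 5 rose and 2 fell in tumours of wild-type males, 6 and 3 in wild-type females, and 2 rose in knock-in males. Among all tested genes, 16.5% rose and 19.3% fell in wild-type males, 25.0% and 24.0% in wild-type females, and 10.4% rose in knock-in males. Csf1, the main growth factor of macrophages, was higher in wild-type tumours of males (1.07, edgeR adjusted p 4.597e-05) and females (2.13, edgeR adjusted p 6.541e-08) and, between male tumours, lower with the knock-in (-1.08, edgeR adjusted p 0.001897).

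Of 9 tested genes of classical activation, 4 were higher in tumours of wild-type males (Il1b, Tnf, Ptgs2 and Cxcl10), where 16.5% of all tested genes were higher. In wild-type females 3 were higher (Il6, Il1b and Ptgs2) and 1 lower, where 25.0% of all tested genes were higher and 24.0% lower, and in knock-in males 1 was higher (Ptgs2), where 10.4% of all tested genes were. Ptgs2, the inducible cyclooxygenase, was higher by 2.40 in wild-type males (edgeR adjusted p 0.002232), 3.67 in wild-type females (edgeR adjusted p 6.034e-05) and 2.63 in knock-in males (edgeR adjusted p 0.005008).

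Relatives of the members were described beside them. Among 7 tested relatives, 3 were higher and 1 lower in wild-type female tumours: the resistin-like gene Retnlg, at 5.01 (edgeR adjusted p 0.004124), is known from neutrophils, and Mrc2 and Havcr2 were the others that were higher, while Stab2 was lower. In that comparison 25.0% of all tested genes were higher and 24.0% lower. In knock-in against wild-type female normal colon, Retnlb, the resistin-like gene of goblet cells, was lower (-3.77, edgeR adjusted p 0.01732), opposite to the Retnla difference there. The resistin-like genes are close copies, and how reads shared between copies were assigned is not given in the sources used here, so values of this family are uncertain. In arginine metabolism, the ornithine enzyme Oat was lower in wild-type male (-0.82, edgeR adjusted p 0.0003606) and female tumours (-0.62, edgeR adjusted p 0.001684). Of 7 tested genes of that list, 4 were higher in wild-type female tumours: the arginine transporters Slc7a2 (1.67, edgeR adjusted p 0.0009246) and Slc7a1 (0.56, edgeR adjusted p 0.0363), Odc1 (0.59, edgeR adjusted p 0.02944) and Asl (0.59, edgeR adjusted p 0.01037). Of all tested genes 25.0% were higher there.

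Smooth muscle genes and most colon epithelium genes were lower in wild-type tumours, as Cd163 was, whereas the sum of mesothelium genes did not follow it. All 6 smooth muscle genes were lower in wild-type male, wild-type female and knock-in male tumours, with medians of -4.31, -4.20 and -2.75 on the log2 scale. Over the 21 libraries, Pearson's r between log2 Cd163 and the log2 sum of the 6 genes was 0.90, and 0.36 for deviations from the group means, and for Folr2 it was 0.80 and 0.11. For Retnla r was 0.71 and 0.44, for Lyve1 0.64 and -0.12, for Mrc1 0.62 and 0.07, and for Arg1 -0.55 and -0.2. The 5 genes most like Cd163 were Adamtsl3 (r 0.97), Sdpr (0.96), Foxp2 (0.96), Plcd1 (0.96) and Ctdspl (0.96), and Adamtsl3 was also the gene most like Folr2 (0.90). Against the sum of general macrophage genes, r of Cd163 was -0.05. In normal colon, knock-in females had the highest mean of both, at 7393 CPM of smooth muscle genes and 17.92 CPM of Cd163. In the other groups the order differed. Wild-type males, knock-in males and wild-type females held means of 6150, 5436 and 2942 CPM of smooth muscle genes beside 6.14, 8.22 and 7.07 CPM of Cd163. Among single libraries, wild-type male normal 3 held 9002 CPM and 6.56 CPM. Knock-in female normal 1 held 6389 CPM and 18.08 CPM, and a held 9004 CPM and 17.86 CPM. Epithelium genes were lower too, 8 of 9 in wild-type males and 9 of 9 in wild-type females, and neutrophil genes were higher in wild-type females, 4 of 4. Of all tested genes, 19.3% were lower in wild-type males, 24.0% lower and 25.0% higher in wild-type females and 9.97% lower in knock-in males. The sum of genes of mesothelium, the outer lining of the gut, behaved differently. Among wild-type males, the mean sum of 5 such genes was 39.39 CPM for tumours against 4.96 CPM for normal libraries, without overlap. Of these, Msln alone gave 38.84 CPM in tumours and 3.79 CPM in normal libraries. The sum therefore says little about the other listed mesothelium genes. For knock-in males the mean sums were 18.45 and 13.9 CPM, and for wild-type females 14.88 and 18.54 CPM, both with overlap. The lowest mean, 2.52 CPM, was that of knock-in female normal colon, the group highest in Cd163. The part of muscle or of other layers in the samples was not tested.

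**Figure D5:**
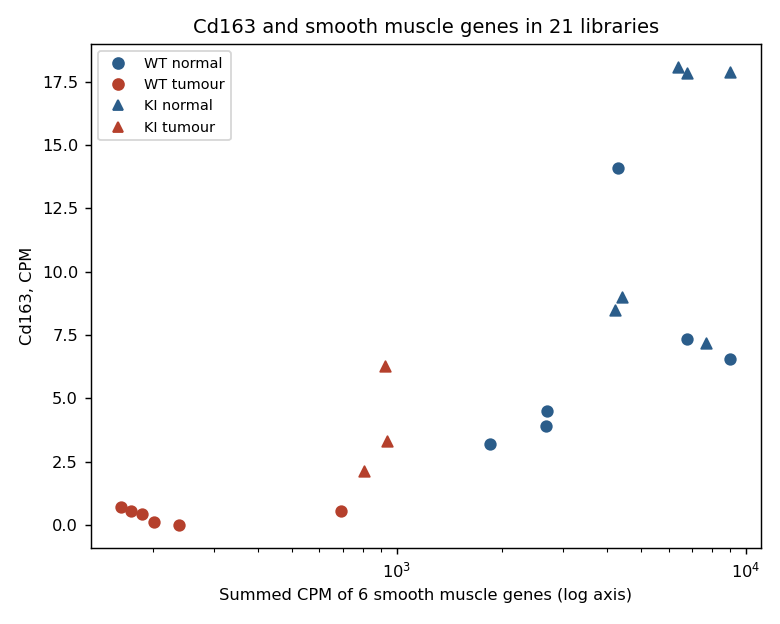
Cd163 in CPM (vertical, linear axis) against the summed CPM of 6 smooth muscle genes (horizontal, log axis) in 21 libraries; circles are wild-type, triangles knock-in, blue normal colon and red tumours. The 6 wild-type tumours lie at 0 to 0.701 CPM of Cd163 and 162 to 694 CPM of smooth muscle genes, and the 3 knock-in female normal libraries at 17.83 to 18.08 CPM and 6389 to 9004 CPM.

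For Retnla the most similar genes were Dennd1a (r 0.87), Opcml (0.87), March2 (0.87), Abi3bp (0.87) and Arhgap21 (0.87), and for Mrc1 they were Lrrk2 (0.86), Gabra3 (0.84), Cntn1 (0.84), Scn7a (0.84) and Pcdh9 (0.84), all over the 21 libraries. Among the members themselves, Cd163 and Folr2 were the most alike (r 0.86), followed by Retnla and Cd163 (0.70). For Arg1, r with the others ran from -0.54 with Retnla to -0.08 with Lyve1, and after removal of group means from -0.35 with Retnla to 0.48 with Lyve1, positive with 4 of 5 members. The corresponding r without group means was 0.43 for Cd163 and Folr2 and 0.33 for Retnla and Cd163.

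In normal colon of wild-type mice, none of the 6 tested members was called between the sexes by edgeR, where 5.74% of all tested genes were higher and 10.2% lower in females. There, 1 member (Arg1) had an unadjusted p under 0.05, and DESeq2 and limma voom each called 1. Between the sexes in wild-type tumours none was called, with none at an unadjusted p under 0.05 and none by DESeq2 or limma voom, where 0.402% of all tested genes were higher and 0.458% lower. Between knock-in and wild-type male normal colon none of 5 was called, again with none at an unadjusted p under 0.05 or by the other tools, where 0.00628% of all tested genes were higher and 0.00628% lower. The difference of the tumour change between the sexes passed for none of 6 by edgeR, DESeq2 or limma voom, with 1 member (Arg1) at an unadjusted p under 0.05, where 0.929% of all tested genes were higher and 0.195% lower.

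Levels per kilobase of exon place the members against each other in wild-type male normal colon: mean CPM per kilobase was 18.3 for Arg1, 11.3 for Lyve1, 8.61 for Mrc1, 3.70 for Retnla, 2.05 for Folr2, 1.12 for Cd163 and 0.253 for Timd4. The place of Arg1 rests on wild-type male normal 1, one of the libraries high in squamous genes, since the mean of the other 2 libraries was 4.25. In knock-in female normal colon Retnla reached 15.1 CPM per kilobase, above Lyve1 at 13.4, Arg1 at 9.25 and Mrc1 at 8.74, and Cd163 was at 3.28. There too Arg1 rests on replicate 1, with a mean of 1.81 in the other 2 libraries.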

How the data were processed

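The deposited table held raw read counts per gene, made by the authors; the submitters' processing notes name Trimmomatic, HISAT2, featureCounts, DESeq2 and mm10, and how strand and shared reads were handled is not given in the sources used here. The 21 libraries fell into 7 groups of 3 by their labels. Counts were fitted in R 4.3.3 with edgeR 4.0.16 (quasi-likelihood F test, 1 fit of all libraries, TMM, filterByExpr, Benjamini-Hochberg adjustment over 15936 genes, threshold 0.05). Standard errors were taken from the log2 fold change and its F. Log2 CPM used a prior count of 2. The script was tested on simulated data. Alternatives were other scalings and filters, DESeq2 1.42.0, limma 3.58.1 voom, the compared groups alone, a replicate block, each library left out, and, chosen after seeing the data, squamous genes as a covariate or their 4 libraries left out.

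The members and the 14 gene lists were chosen with earlier results of these data known. Named list genes were, for each list and comparison, up to 4 called genes per direction with the largest change and a mean of at least 20 counts in 1 compared group, and not every one is printed. Likeness was Pearson's r of log2 CPM over 21 libraries, with the 5 highest genes named. Same-numbered libraries of wild-type male normal colon and tumours deviated together (r 0.169, 0.174 and 0.215), although the labels do not call those numbers pairs. The main fit, which gave the reported p-values, had no replicate block. The block was fitted as an alternative, and it left 3 members called there. The authors' own comparison table was not used here. Positions are from GENCODE on GRCm38. Intervals and floors cover counting error only.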

Additional observations from a re-analysis of the deposited data

Results flagged for a closer look

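Retnla moved in opposite directions between genotypes in the sexes: every knock-in male normal library was below every wild-type male normal library (log2 difference -3.74), and every knock-in female normal library was above every wild-type female normal library (2.47). Lyve1 showed the same arrangement, at -0.43 in males and 0.86 in females. For Timd4, on the log2 ratio of mean CPM, wild-type females were below wild-type males in normal colon (-2.78) and knock-in females above knock-in males (1.20), without overlap in either genotype. The difference between the effects was not tested for any of these genes, and Retnla and the knock-in comparison had a part in the choice of the genes.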

How the results depend on the processing

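The lower levels of Cd163 in wild-type tumours of both sexes and of Folr2 in wild-type female tumours were called under every alternative in which they were tested. In wild-type males 3 members were called, 5 with limma voom, and 2 to 4 with 1 library left out. The share of all genes called is given for the main edgeR fit only, so counts under other settings, here and above, lack that comparison. In wild-type females 5 were called, 3 with a mean of at least 50 counts, and 2 to 6 with 1 library left out. The filter at a mean of 50 counts left out Retnla and Folr2, both called there in the main fit. Its 3 calls thus come from a smaller tested set. Between male tumours of the genotypes 1 was called, and 0 without the 4 libraries high in squamous genes. Between genotypes in female normal colon 0 were called, and 1 with no filter, which was Timd4, a member not tested in the main fit. The count was 1 with a mean of at least 50 counts, with DESeq2 or with the compared groups alone. It was 2 with limma voom, and 0 to 2 with 1 library left out. Between the sexes in wild-type normal colon 0 were called, and 1 with no filter, which was again Timd4. The count was 1 with DESeq2 or limma voom, and 0 to 2 with 1 library left out. For the difference of the tumour change between genotypes 0 were called, 1 with DESeq2, and 0 to 1 with 1 library left out. The replicate block changed no count of members called (tumours against normal colon: 3 in males and 5 in females of the wild type, 0 with the knock-in; 1 between male tumours); it could not be fitted for female normal colon, where the columns of the knock-in libraries do not carry 3 numbers. Outside wild-type males the correlations of same-numbered libraries were not all above 0.1.

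Changes of sign concerned values that were not called, and the cause was not tested. Arg1 in wild-type male tumours ranged from -0.47 to 2.14 with 1 library left out. Lyve1 in knock-in male tumours was -0.034 with limma voom, -0.12 with the replicate block, -0.035 with late running numbers (152 and above) as a covariate, -0.27 with squamous genes as a covariate, -0.51 without the squamous libraries, and -0.54 to 0.34 with 1 library left out. Between male tumours of the genotypes, Retnla was -0.10 with the running-number covariate and -0.12 to 4.41 with 1 library left out, Arg1 was -0.0060 with the squamous covariate, and Lyve1 was -0.24 without the squamous libraries and -0.24 to 0.67 with 1 library left out. Of the 6 wild-type tumours, all 6 for Retnla and 2 for Cd163 were under 3 counts, so differences among tumours at that level were not detectable.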
